A study of Capsicum annuum and Capsicum chinense and Capsicum annuum var. glabriusculum with 33 samples.

Results

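The 150 genes described here were expressed in 5 chosen libraries of the pepper inbred line Zunla 1 (Capsicum annuum). They gave almost no reads in HYL, an inbred line of Capsicum chinense. They were chosen by RPKM, a read count scaled by both the length of the gene and the total reads of its library. A gene was a member where its RPKM was below 0.1 in all 6 libraries titled HYL (root, stem, leaf, mature green fruit, breaker fruit and fruit 5 days after breaker) and at 1 or more in the Zunla 1 library of each of these organs but breaker fruit, which makes 5. Of the 31426 genes in the table, 14335 met the Zunla 1 condition alone, and 150 of these met both. The values of those 11 libraries chose the genes, so they are given as a description. No test result below uses them, and 1 fit that did was set aside.

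The series holds poly(A) RNA of 33 whole-organ samples, each sequenced as 1 library. HYL roots, stems and leaves came from seedlings, whereas the Zunla 1 leaves were mature and its roots and stems were developing ones. Chiltepin, the wild pepper C. annuum var. glabriusculum, was represented by mixed leaves of several plant phases, mixed buds and open flowers, and breaker fruit. Mature green fruit of 8 further C. annuum lines (ZJ32, ZJ9, ZJ49, 11c255, G16, 11c320, T803 and SP3) and fruit 5 days after breaker of ZJ49 and ZJ7 were also sequenced. The library titled SP3 is described as line SP163. Zunla 1 itself had 14 libraries: the 5 named above, flower buds, open flowers, growing fruit in 4 length classes (0 to 1, 1 to 3, 3 to 4 and 4 to 5 cm), breaker fruit, and fruit 3 and 7 days after breaker. The labels name no plants or replicates, so stages and lines stood in for replicates and every p-value below measures the spread between stages or lines.

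C. annuum and C. chinense are separate domesticated species of Capsicum, and chiltepin is the wild form of C. annuum. Plant genomes of 1 genus differ in gene content as well as in expression: some genes are present in certain lines or species and deleted, truncated or diverged in others. An RNA table built on the gene set of 1 reference cannot tell a gene that is missing from a gene that is present and not transcribed, or from one whose sequence has diverged so far that its reads no longer match. Whether HYL reads matched these gene models as well as Zunla 1 reads did was not tested. None of the 31426 IDs matched the gene-name table used here (0 matches), so the genes are given by ID and no function is assigned.

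Read totals recovered from the RPKM steps were 12691809 to 15864306 in 25 libraries, called shallower below, and 25923891 to 31213971 in the 8 others, called deeper. All HYL and Zunla 1 libraries were in the shallower set. All 3 chiltepin libraries and 11c255, 11c320, G16, T803 and SP3 were in the deeper one. For a gene of 1 kilobase, 3 reads corresponded to 0.189 to 0.236 RPKM in the shallower libraries and to 0.0961 to 0.116 RPKM in the deeper ones. A gene of that length therefore stayed below 0.1 RPKM in a HYL library only with at most 1 read. A gene of the members' median length had to have none, since 1 read was worth 0.156 RPKM there. Floors of this kind cover counting error only. A gene below 0.1 RPKM is called absent from a library below, and one at 1 RPKM or more present, which says nothing of whether the plant carries it.

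The breaker fruit library titled HYL is described as Zunla 1, so its line could not be set from the labels, and it was placed in no group. Without it the rule gave 158 genes, of which 150 (94.9%) were below 0.1 RPKM in it, with 1 gene at 1 or more and a highest value of 1.35. A reverse rule, genes below 0.1 RPKM in the 5 Zunla 1 libraries and at 1 or more in HYL, gave 33 genes without that library, and 33 of 33 were at 1 or more in it.

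In HYL the 150 genes were close to empty. Exactly 0 was listed in all 6 HYL columns for 141 of them, and 12 of 900 HYL values were above 0. Over the 149 members whose length could be recovered, the 6 HYL columns held 15 reads, against 60291 reads in the 5 Zunla 1 libraries. The most that any member had in HYL was 4 reads, whereas in Zunla 1 the members had between 38 and 2664 reads with a median of 211. None of these 149 members rested on fewer than 10 Zunla 1 reads, which the Zunla 1 condition and their lengths already ensured. The HYL counts were likewise largely fixed by the rule, since 1 read was worth 0.156 RPKM at the members' median length. They describe the choice and test nothing.

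**Figure D1:**
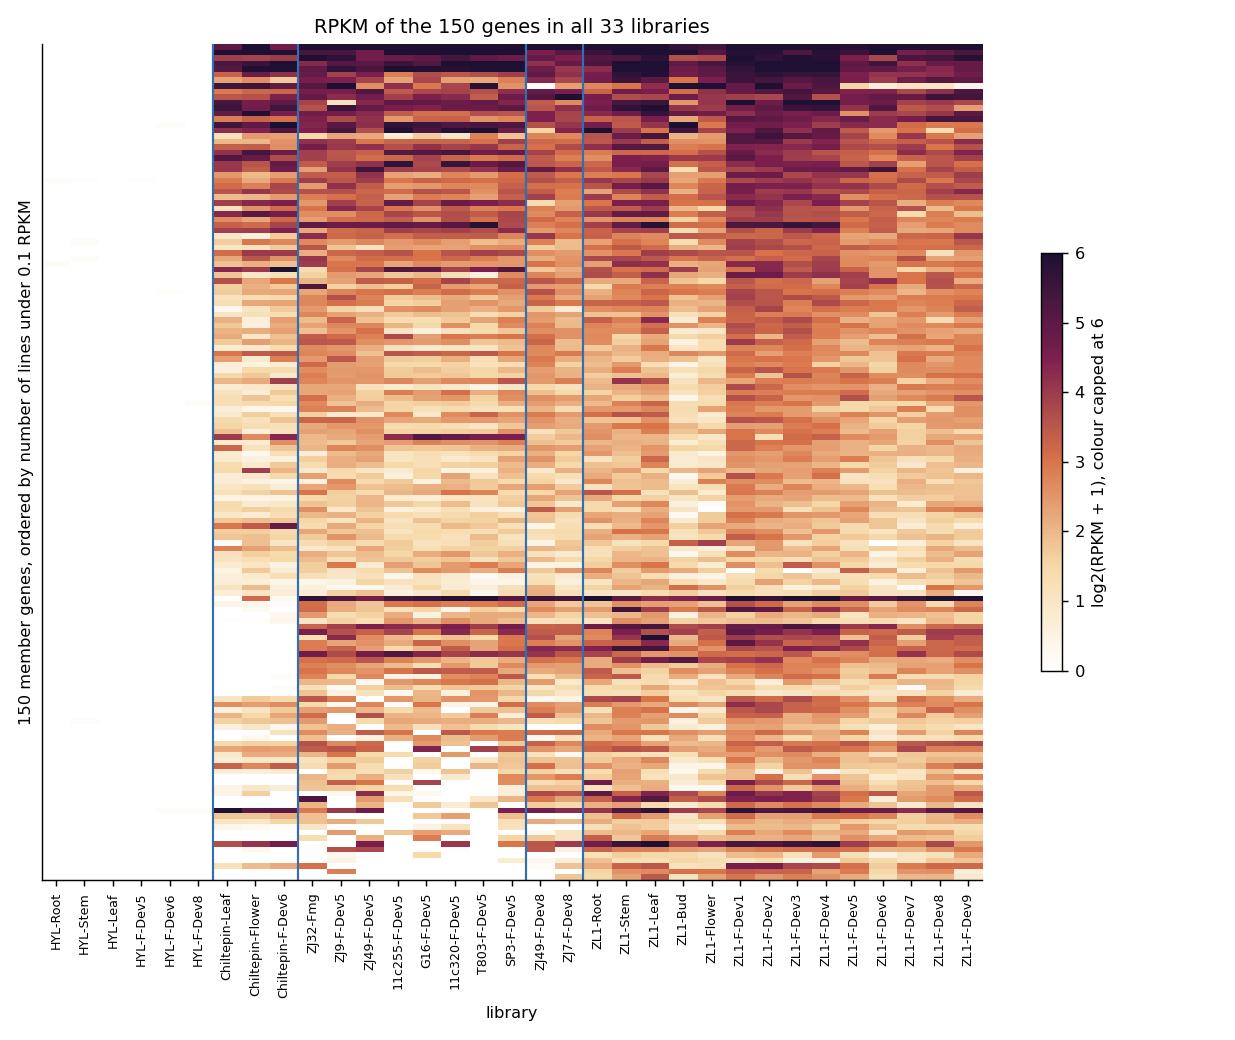
RPKM of the 150 genes (1 per row) in the 33 libraries (columns: 6 titled HYL, 3 chiltepin, 8 mature green lines, 2 lines at 5 days after breaker, 14 Zunla 1), as log2(RPKM + 1) with the colour capped at 6. Rows are ordered by the number of mature green lines below 0.1 RPKM; the HYL columns are blank but for 12 faint values, and the white cells right of them include the 33 genes below 0.1 RPKM in at least 1 line and the 23 genes below it in all 3 chiltepin libraries.

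The members nearest to the thresholds show how the rule drew its limits. Capana02g003287 and Capana04g001770 were the highest inside the HYL limit, with 0.0954 and 0.0896 RPKM in HYL stem, and Capana00g002852 and Capana00g000845 fell just outside at 0.104 and 0.112 RPKM. At the Zunla 1 limit, the lowest values inside were 1.02 RPKM for Capana06g002565 and 1.03 RPKM for Capana03g000893, and those just outside were 0.995 RPKM for Capana00g002336 and 0.994 RPKM for Capana03g001161.

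The genes were short and of low level. Their recovered lengths had a median of 465 bases (300 to 3318), against 1038 bases over the genes that met the Zunla 1 condition, and 64.4% of members against 21.7% of those genes were shorter than 600 bases. For each gene the median was taken over the 9 Zunla 1 libraries that the rule did not use. That level had a median of 5.64 RPKM over the members (quartiles 2.98 and 9.96, range 0.970 to 67.1) and of 16.3 RPKM over the 14335 genes. Short and low genes give fewer reads, so shares of the members are set below also beside the 4827 genes of the Zunla 1 condition under 10 RPKM, and beside the 1118 of these that were under 600 bases. Both limits were chosen after the values had been seen.

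In the 9 Zunla 1 libraries that had no part in the choice, the genes were seldom absent. Of 1350 values 4 (0.296%) were below 0.1 RPKM, against 0.162% of the values of the 14335 genes. At 1 RPKM or more in all 9 were 94 of 150 (62.7%), against 90.1% of all 14335 genes and 68.8% of those that were low and short. The lowest libraries were the flower bud, with 116 members at 1 RPKM or more, and the open flower and 3 days after breaker libraries, with 132 and 137.

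The 8 members with the highest level in the unused Zunla 1 libraries were read at 0 or at most 2 reads in the 6 HYL columns. Capana11g001653 had 0 RPKM in all 6 HYL columns, 31.3, 70.6 and 25.5 RPKM in chiltepin leaf, flower and breaker fruit, 75.4 to 104 RPKM in the 8 mature green lines, and 42.6 to 168 RPKM over the 14 Zunla 1 libraries. Capana10g001264 also had 0 RPKM in HYL but was higher in chiltepin, at 215, 175 and 155 RPKM, than in any of the 14 Zunla 1 libraries, whose range was 23.5 to 110 RPKM. Every C. annuum library expressed this pair, so among the lines measured their near absence was seen in HYL alone.

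Capana01g002097 had 0 RPKM in HYL and 23.5 to 60.5 RPKM in the 8 lines, but in chiltepin it was at 0.0530 RPKM in leaf, 7.72 in flower and 0.194 in breaker fruit. All 14 Zunla 1 libraries, from 18.0 to 117 RPKM, lay above the 3 chiltepin ones. Capana09g001330 showed the reverse arrangement, with 75.9, 31.5 and 31.5 RPKM in chiltepin and exactly 0 in 4 of the 8 lines (11c255, G16, 11c320 and T803). The other 4 lines had 6.60 to 26.4 RPKM, and the 6 HYL columns held 2 reads in all.

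The rest of the 8 were expressed everywhere outside HYL. Capana07g001128 had 13.3 to 15.1 RPKM in chiltepin and 24.0 to 90.5 in the lines, against 11.5 to 76.6 in Zunla 1. Capana03g002811 had 37.8 to 78.9 RPKM in chiltepin and 17.2 to 91.4 in Zunla 1, and Capana07g000435 had 33.8 to 125 RPKM in chiltepin and 18.0 to 102 in Zunla 1. Capana09g001327 had 8.76 to 25.7 RPKM in chiltepin and 16.5 to 58.1 in Zunla 1. The ranges of chiltepin and Zunla 1 overlapped for each of these genes.

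With 3 reads over the 5 assigned HYL libraries as a floor, because those libraries held no read, the mean of the 5 Zunla 1 libraries implied a level at least 803.2-fold lower in HYL for Capana11g001653 and at least 850-fold lower for Capana01g002097. The corresponding bounds were 652-fold for Capana09g001327, 473-fold for Capana07g000435, 421-fold for Capana10g001264, 403-fold for Capana03g002811 and 313-fold for Capana07g001128. Since these values chose the genes, the bounds describe them and test nothing. In whole organs, fewer cells expressing a gene and less RNA per cell cannot be told apart.

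**Figure D2:**
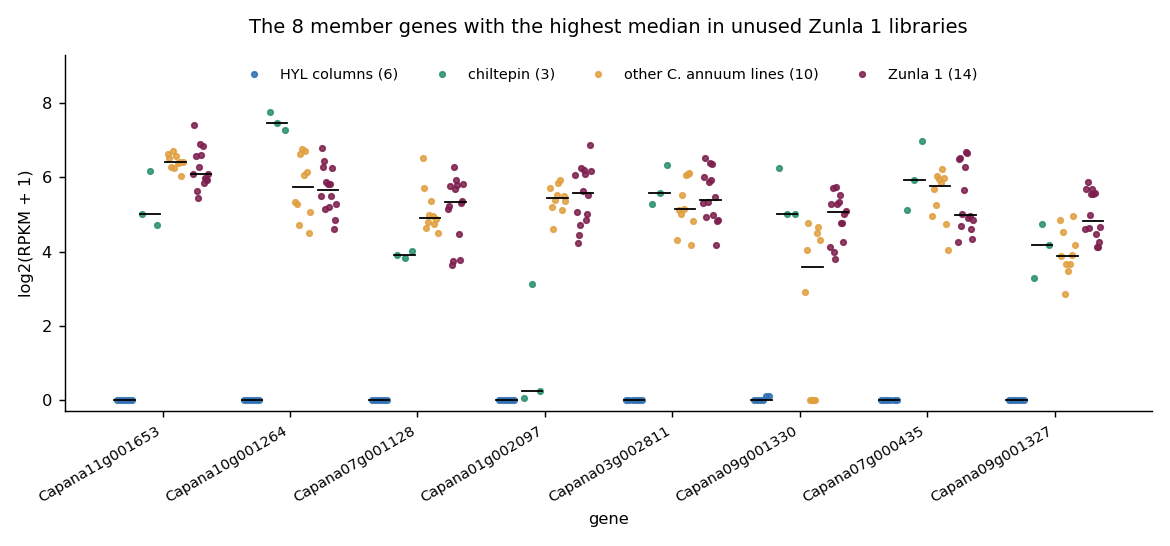
Level of the 8 genes with the highest median in the unused Zunla 1 libraries, as log2(RPKM + 1), with 1 point per library and a bar at each group's median (6 columns titled HYL, 3 chiltepin, 10 other C. annuum libraries, 14 Zunla 1). The HYL points lie at or near 0 for all 8 genes; Capana01g002097 is also low in chiltepin, and Capana09g001330 is at 0 in 4 lines.

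In the other C. annuum lines fewer of the 150 genes were present than of the Zunla 1 genes as a whole. At 1 RPKM or more in all 8 mature green lines were 90 members (60%), against 93.2% of the 14335 genes, 82.8% of the low ones and 75.1% of the low and short ones. Below 0.1 RPKM in at least 1 of the 8 lines were 33 members (22%), against 1.64% of the 14335 genes, 3.81% of the low ones and 7.78% of the low and short ones. These shares are descriptions, and no chance test was made of them.

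The count of members below 0.1 RPKM was 9 in ZJ32, 11 in ZJ9, 10 in ZJ49, 18 in 11c255, 13 in G16, 17 in 11c320, 20 in T803 and 7 in SP3. The highest counts were in lines of the deeper set, and SP3, also deeply read, had the lowest. Absent from at least 1 of the 5 deeper lines were 28 members, and from at least 1 of the 3 shallower lines 20. In each line alone, between 0.265% and 0.593% of the 14335 genes were below 0.1 RPKM, and in mature green HYL fruit alone the share was 1.70% (243 genes).

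Most of the 33 genes were absent from several lines: 25 were absent from 2 or more. Of the members, 8 were below 0.1 RPKM in exactly 1 line, 8 in 2, 4 in 3, 6 in 4, 1 in 5, 3 in 6, 2 in 7 and 1 in all 8. A group of 7 genes was below 0.1 RPKM in each of 11c255, 11c320, G16 and T803, a set of lines picked outside the planned comparisons. ZJ49 was sequenced at a pair of stages. Of its 10 members below 0.1 RPKM in mature green fruit, 6 were also below it 5 days after breaker, and the highest value among the 10 at that later stage was 0.230 RPKM. In the other direction, 6 of the 7 members below 0.1 RPKM in ripening ZJ49 fruit were also below it at mature green.

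The 3 genes absent from the most C. annuum libraries outside Zunla 1 were each present in 1 of them. Capana07g000753 was at 0 in all 3 chiltepin libraries, in all 8 mature green lines and in ZJ49 5 days after breaker, but had 2.42 RPKM in ZJ7 and 0.831 to 9.95 RPKM over the 14 Zunla 1 libraries. Capana10g000701 was at 0 in chiltepin and in every line but ZJ9, which had 6.05 RPKM, within the 0.585 to 9.70 RPKM of Zunla 1. Capana04g000137 was at 0 in chiltepin, had 1.78 RPKM in G16 and 0.225 in ZJ9, and was at 0 in the other lines, against 0.423 to 4.28 RPKM in Zunla 1.

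A different case was Capana06g002766, which had 7.28 RPKM in ZJ32, exactly 0 in the 7 other mature green lines, and 1.27 to 3.58 RPKM in chiltepin. Its Zunla 1 values ran between 1.18 and 23.0 RPKM, with 7.51 in mature green fruit. In fruit 5 days after breaker it was at 0.105 RPKM in ZJ49 and 2.50 in ZJ7.

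**Figure D3:**
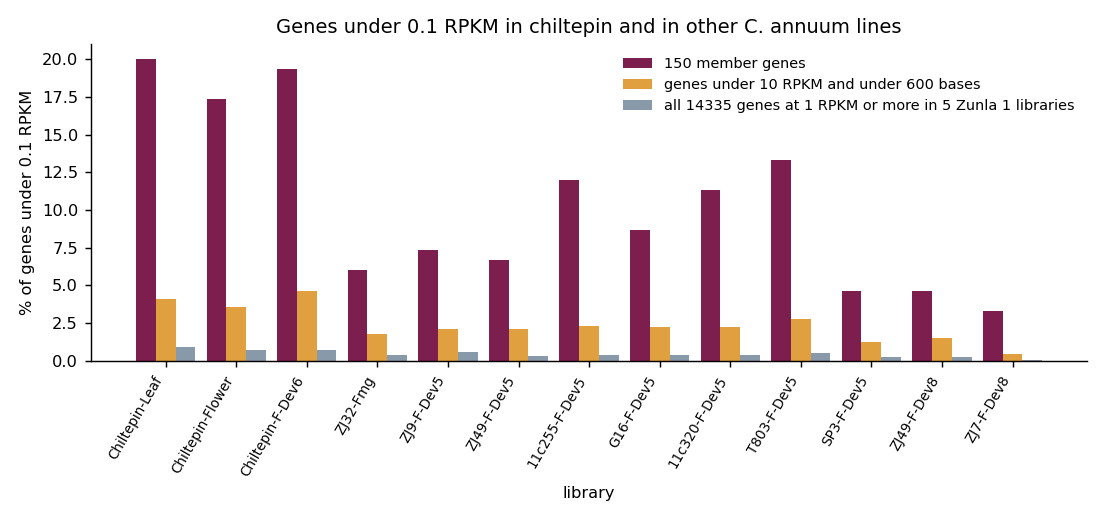
Percentage of genes below 0.1 RPKM in each of the 3 chiltepin libraries and 10 libraries of other C. annuum lines, for the 150 members, for the 1118 genes on in Zunla 1 that are under 10 RPKM and under 600 bases, and for all 14335 genes on in Zunla 1. The members' bars are the highest in each library, from 3.33% in ZJ7 to 20% in chiltepin leaf.

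In wild chiltepin more of the 150 genes were absent than in any of the cultivated lines. Below 0.1 RPKM were 30 members in leaf, 26 in flower and 29 in breaker fruit, against 5 to 20 in the 10 libraries of other lines. The 14335 genes were also absent more often in chiltepin. Their shares were 0.935%, 0.705% and 0.732% in leaf, flower and breaker fruit, against 0.0767% to 0.593% in the 10 libraries. The chiltepin libraries were of the deeper set, and their organs differed from the mature green and ripening fruit of the lines. All 3 chiltepin libraries were below 0.1 RPKM for 23 members (15.3%). That share was 0.439% over the 14335 genes, 0.891% over the low ones and 2.42% over the low and short ones. At 1 RPKM or more in all 3 were 76 members (50.7%), against 92.5% of the 14335 genes, 80.8% of the low ones and 70.8% of the low and short ones, and 51 members fell in neither class.

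Absence from chiltepin and absence from the lines coincided only in part. Of the 23 genes below 0.1 RPKM in chiltepin, 10 were also below it in at least 1 line, 13 in none, and 9 were at 1 RPKM or more in all 8 lines. The same rule with chiltepin in place of HYL selected 63 genes, and 23 genes were on both lists, which is 36.5% of the chiltepin list and 15.3% of the HYL list. Both lists use the same 5 Zunla 1 libraries. Capana01g002464 belongs to this overlap, at 0 RPKM in all 3 chiltepin libraries, 1.72 to 9.47 RPKM in the 8 lines and 4.72 to 44.4 RPKM in Zunla 1. Only 52 of the 150 genes (34.7%) were at 1 RPKM or more in every chiltepin, mature green line and unused Zunla 1 library.

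Levels in chiltepin flower and breaker fruit were also tested against Zunla 1 bud, open flower and breaker fruit, none of which chose the genes. The model was limma on log2(RPKM + 1) with organ as a block, fitted over all genes that reached 1 RPKM in 2 or more of the libraries, and 142 members entered it. limma with Benjamini-Hochberg adjustment called 0 of 142 members and 0% of the 20484 genes tested, and the lowest adjusted p among the members was 0.132. At an unadjusted p under 0.05 by limma stood 43 of 142 members, 34 lower and 9 higher in chiltepin. Over all genes tested it was 3350 of 20484 (16.4%) in either direction. No split by direction was made over all genes, so that of the members has no comparison. The median difference was -0.21 over the members, 0.24 over all genes and 0.19 over the genes on in Zunla 1. Rescaling by median-of-ratios factors moved these medians to -0.45, -0.01 and -0.07. All chiltepin libraries were of the deeper set and all Zunla 1 libraries of the shallower one, and the part of depth was not tested.

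Within Zunla 1 the 150 genes were highest in young fruit and lowest in flowers by RPKM as deposited. The 14335 genes were likewise lowest in flowers but about equal in leaf and growing fruit. These levels were not rescaled, and the gap between flowers and growing fruit depended on the scaling, as given below. The members' median was 4.67 RPKM in root, 5.79 in stem and 6.11 in leaf, and 2.63 in bud and 3.38 in open flower. The medians of the 14335 genes in these organs were 18.0, 18.8 and 19.4 RPKM, and 11.8 and 11.9 RPKM. In fruit the median went through 8.56, 8.03, 7.34 and 6.28 RPKM in the 4 length classes in order of size, 4.97 at mature green, 3.66 at breaker, and 4.16, 4.48 and 5.18 at 3, 5 and 7 days after breaker. The medians of the 14335 genes were 19.0, 19.6, 19.3 and 19.1 RPKM over the same length classes, 13.8 at mature green, 12.5 at breaker, and 15.8, 13.5 and 16.5 at 3, 5 and 7 days after it. Across the 4 length classes the members' median was thus lower at each larger size, while that of the 14335 genes showed no such order.

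Counted by the library in which a gene was highest by RPKM as deposited, growing fruit also came first. For 79 members (52.7%) it was one of the 4 growing fruit libraries, against 27.6% of the 14335 genes, and for 44 members it was fruit of up to 1 cm. Leaf was highest for 24 members (16%), against 13.7% of the 14335 genes. Bud or open flower was highest for 6 members (4%), against 12.1% of the 14335 genes. The ratio of the highest to the lowest Zunla 1 library had a median of 8.08 over the members and 5.90 over the 14335 genes. It was under 4 for 13 members (8.67%) against 30.2% of those genes and over 20 for 21 members (14%) against 16.5%; low genes have noisier ratios, and no matched comparison was made.

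**Figure D4:**
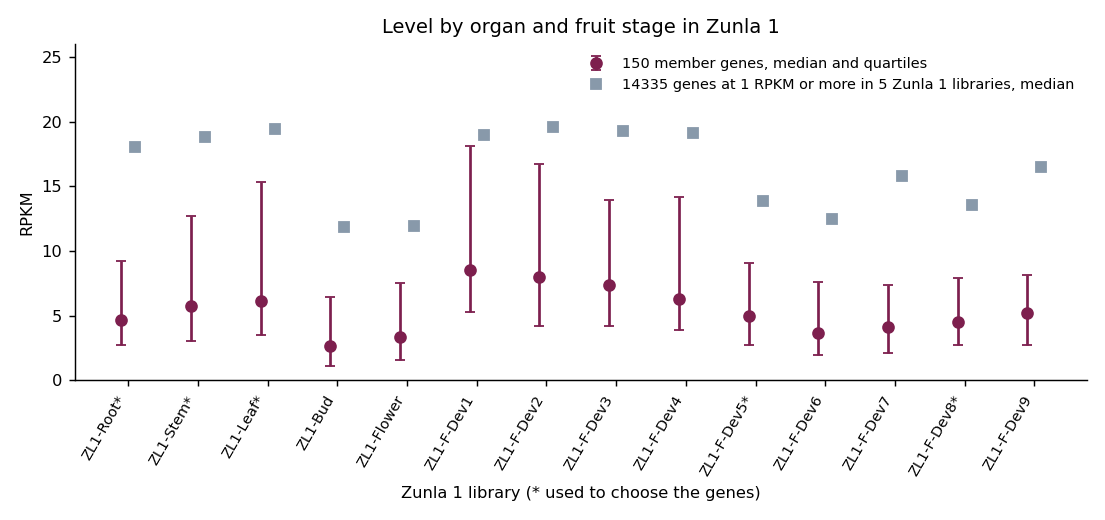
Level by organ and fruit stage in the 14 Zunla 1 libraries, in RPKM as deposited. Circles are the median of the 150 members with bars at the quartiles, and squares are the median of all 14335 genes on in Zunla 1. Libraries marked with an asterisk chose the genes. The members' median is highest in the smallest fruit (8.56 RPKM) and lowest in bud (2.63 RPKM).

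Flowers were compared with growing fruit (bud and open flower against the 4 length classes) with the same limma model, and all 150 members entered. In flowers 86 members were lower and 3 higher, against 33.6% of the 21376 genes tested lower and 11.8% higher, and 42.2% of the genes on in the 5 Zunla 1 libraries lower. The median difference on the log2(RPKM + 1) scale was -1.21 over the members, -0.66 over all genes tested and -0.79 over the genes on in Zunla 1. This contrast depended on the scaling. With median-of-ratios factors the median over all genes moved to 0.02 and that of the members to -0.55, and 30 members were lower and 7 higher. All genes tested split into 2531 higher and 7172 lower as deposited, and into 4000 higher and 2190 lower after rescaling. Without the bud library, which left 1 flower library, the median difference was -1.10 over the members and -0.74 over all genes.

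Capana06g002766 had the largest fall, with 1.18 and 1.30 RPKM in bud and open flower, against 23.0, 22.7, 12.9 and 12.0 RPKM in the 4 length classes. The groups did not overlap, and the difference was -3.00 (SE 0.352, adjusted p 0.00153 by limma with Benjamini-Hochberg adjustment). Capana10g000481 had 3.14 and 4.30 RPKM in flowers, against 34.7, 44.2, 33.2 and 27.8 RPKM in growing fruit, again without overlap. Its difference was -2.92 (SE 0.257, limma adjusted p 0.000489). Both are low or absent in most other lines: Capana10g000481 reached at most 5.85 RPKM in the 8 mature green lines, against 13.5 RPKM in Zunla 1 at that stage.

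The genes higher in flowers were 3. Capana05g001731 had 7.59 and 4.95 RPKM in bud and open flower, against 2.16, 1.34, 0.459 and 0.802 RPKM in growing fruit (difference 1.77, SE 0.390, limma adjusted p 0.0125). Capana00g002725 had 9.20 and 14.01 RPKM in flowers, against 3.89, 4.49, 1.21 and 2.16 RPKM in growing fruit (difference 1.74, SE 0.441, limma adjusted p 0.0201). Capana11g001305 had 139 and 65.1 RPKM in flowers, against 28.9, 62.9, 26.8 and 36.9 RPKM in growing fruit (difference 1.36, SE 0.447, limma adjusted p 0.0471). None of these overlapped between the groups, and all 3 calls were lost when the bud library was left out. Without the open flower Capana00g002725 also lost its call (limma adjusted p 0.107), and Capana11g001305 lost its call without the filter on low values (limma adjusted p 0.0605) and without the class of 0 to 1, 3 to 4 or 4 to 5 cm (limma adjusted p 0.0872 to 0.0894).

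Fruit after breaker was compared with growing fruit in libraries outside the rule (3 and 7 days after breaker against the 4 length classes). These growing fruit libraries are the ones used against flowers, so the comparisons are not independent. Of the 150 members, 33 (22%) were lower after breaker and 0 higher by limma, against 17.5% of the 20343 genes tested lower and 6.6% higher, and 15.5% of the genes on in Zunla 1 lower. At an unadjusted p under 0.05, 58 members were lower and 1 higher. The median difference was -0.63 over the members, -0.35 over all genes tested and -0.22 over the genes on in Zunla 1. With median-of-ratios factors 21 members were lower and 0 higher, with medians of -0.41 over the members and -0.11 over all genes. All genes split into 1343 higher and 3550 lower as deposited and into 1996 and 2470 after rescaling. Leaving out the library of 7 days or that of 3 days left 1 library after breaker. The median difference was then, in that order, -0.78 and -0.45 over the members, and -0.43 and -0.33 over all genes. Leaving out the 1 to 3 cm class gave calls for 18 of 149 members, against 2402 of 19789 genes tested. Leaving out the 4 to 5 cm class gave 21 of 150, against 2895 of 19899.

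Capana11g001305 fell furthest, with 1.08 and 0.304 RPKM at 3 and 7 days after breaker, against 28.9, 62.9, 26.8 and 36.9 RPKM in growing fruit. The difference was -4.51 (SE 0.402, limma adjusted p 0.00190), and the groups lay far apart. In mature green fruit this gene also differed between lines, with 123 RPKM in ZJ9, 54.4 in T803, 33.3 in ZJ32 and 4.79 to 17.4 in the remaining lines, against 1.92 RPKM in Zunla 1. Capana06g002604 had 4.23 and 5.30 RPKM after breaker, against 36.6, 37.8, 47.3 and 40.6 RPKM in growing fruit. Its difference was -2.85 (SE 0.203, limma adjusted p 0.00127), with no overlap.

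In the other C. annuum lines, fruit 5 days after breaker (ZJ49 and ZJ7) was compared with mature green fruit of the 8 lines, and 146 members were tested. ZJ49 was in both groups and the model had no term for line, so the groups were not fully independent. By limma 2 members were higher after breaker and 3 lower, which is 3.42% in either direction, against 4.25% of the 21243 genes tested higher and 6.9% lower. With median-of-ratios factors 3 members were higher and 1 lower, and all genes split into 1204 higher and 1115 lower, against 902 and 1465 as deposited. Capana06g002604, the gene that also fell in Zunla 1, had 6.14 and 7.30 RPKM after breaker, against 11.9 to 54.6 RPKM (median 28.7) at mature green (difference -1.92, SE 0.408, limma adjusted p 0.0168). Capana12g000620 had 1.58 and 4.08 RPKM, against 4.44 to 27.9 RPKM (median 15.9), a difference of -2.13 (SE 0.579, limma adjusted p 0.0410). Both genes were lower after breaker than any mature green line.

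Capana05g000622 rose, with 34.3 RPKM in ZJ49 and 132 RPKM in ZJ7 after breaker, against 9.23 to 28.5 RPKM (median 20.1) in the 8 lines (difference 1.78, SE 0.486, limma adjusted p 0.0414). Capana01g002464 had 19.7 and 18.2 RPKM after breaker, against 1.72 to 9.47 RPKM (median 5.29), with a difference of 1.72 (SE 0.487, limma adjusted p 0.0466). The remaining call was Capana07g000435, with 25.8 and 15.4 RPKM against 29.96 to 74.0 RPKM (difference -1.35, SE 0.340, limma adjusted p 0.0306). All 5 calls were lost without the ZJ49 library of 5 days, when 0 members were called, and without that of ZJ7, when 1 other member was called. With the 3 shallower lines alone as mature green fruit, limma called 0 members and 0 of all genes, with 10 members at an unadjusted p under 0.05. Without the mature green ZJ49 library 13 of 146 members were called, against 4413 of 21155 genes tested. Without ZJ32 it was 8 of 145, against 2280 of 21025. Leaving out 11c255, G16, 11c320, T803 or SP3 gave 1 or 2 members, against 1503 to 2011 of all genes tested.

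The ID numbers of the 150 genes were uneven over the 13 number prefixes, and some lay close together. The prefix 04 held 19 members (1.90% of its genes on in Zunla 1), 09 held 15 (1.94%), 00 held 21 (1.55%) and 08 held 3 (0.244%). What the prefix 00 stands for is not given in the sources used here. Another member lay within 5 ID numbers for 26 members (17.3%), in 12 runs of which 2 had 3 genes and 10 had 2. Directly adjacent numbers were found for 17 members and neighbours within 20 for 38. On the chiltepin list 14 of 63 genes (22.2%) had such a neighbour within 5, and on the reverse list 0 of 33. The lists differ in length, and a shorter list has fewer neighbours to find, so these shares are not a like comparison. No chance test was made of the neighbours. In 7 of the 12 runs the members shared 1 pattern of absence over the other libraries, and in each of these none was absent from any.

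The largest stretch lay on prefix 09. Capana09g001327, Capana09g001328 and Capana09g001330 were members, and the genes between and beside them were also low in HYL without meeting the rule. Capana09g001326 had at most 0.130 RPKM in HYL, against 10.1 to 20.5 RPKM in the 5 Zunla 1 libraries, and Capana09g001331 had at most 0.180 RPKM in HYL, against 11.6 to 19.9 RPKM. Capana09g001329 was reduced but not at 0, with 0.309 to 1.46 RPKM in HYL, against 3.73 to 18.6 RPKM. Outside these 6 consecutive numbers the genes were expressed in both species: Capana09g001325 had 5.48 to 15.0 RPKM in HYL against 4.38 to 10.5 RPKM in Zunla 1, and Capana09g001332 had 26.8 to 40.4 RPKM against 12.3 to 25.5 RPKM.

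Part of the same stretch varied within C. annuum. Capana09g001330 and its neighbour Capana09g001331 were both at exactly 0 in 11c255, G16, 11c320 and T803. In the other 4 mature green lines Capana09g001330 had 6.60, 15.5, 26.4 and 21.7 RPKM and Capana09g001331 had 6.50, 10.3, 16.02 and 13.5 RPKM, in ZJ32, ZJ9, ZJ49 and SP3. Chiltepin held the highest values of both, 75.9 and 60.4 RPKM in leaf. Capana09g001327, Capana09g001328 and Capana09g001329 were expressed in all 8 lines, so the absence in these 4 lines covered 2 of the 6 numbers, while the low values in HYL covered all 6. Capana09g001327 (816 bases) fell in fruit after breaker, with 16.6 and 24.5 RPKM against 46.0 to 51.0 RPKM in growing fruit (difference -1.19, SE 0.208, limma adjusted p 0.0120).

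**Figure D5:**
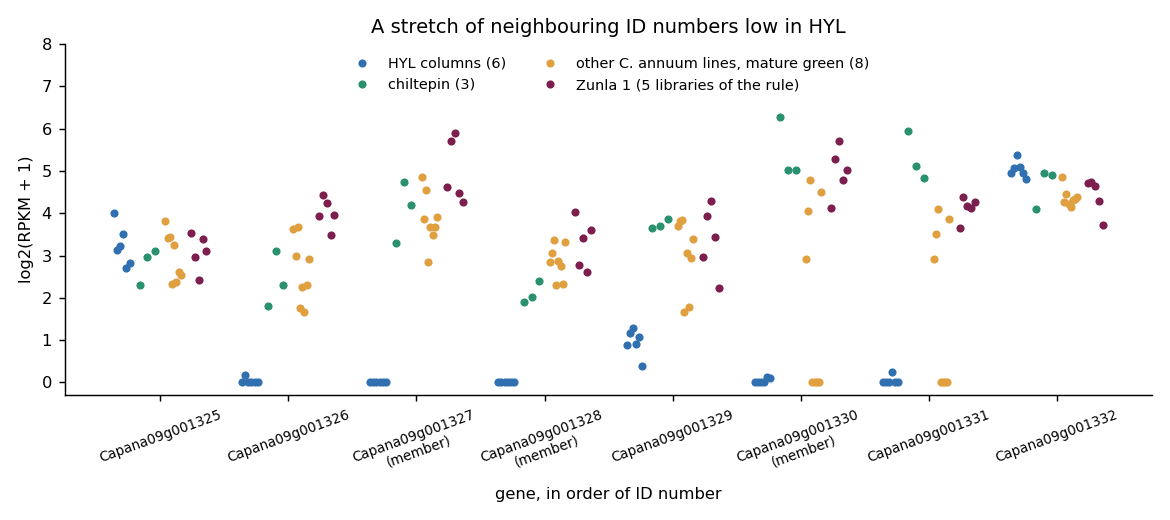
Level of 8 genes with consecutive ID numbers as log2(RPKM + 1), with 1 point per library (6 columns titled HYL, 3 chiltepin, 8 mature green lines, 5 Zunla 1 libraries of the rule). The HYL points are near 0 for Capana09g001326, Capana09g001327, Capana09g001328, Capana09g001330 and Capana09g001331 and low for Capana09g001329, while Capana09g001325 and Capana09g001332 at the ends overlap with or lie above the other groups; 4 lines are at 0 for Capana09g001330 and Capana09g001331.

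The other run of 3 was Capana04g002300, Capana04g002301 and Capana04g002302. All were at 0 in HYL. In the 5 Zunla 1 libraries their ranges were 6.15 to 10.01, 1.84 to 3.55 and 2.68 to 4.65 RPKM, given by increasing ID number. Capana04g002301 was low in chiltepin, with 0.390, 0.334 and 0.398 RPKM, below all 14 Zunla 1 libraries, which began at 1.03 RPKM. The next gene, Capana04g002303, was expressed in HYL at 9.47 to 50.4 RPKM, against 7.27 to 22.7 RPKM in Zunla 1. On the other side, Capana04g002299 was reduced in HYL but not at 0, with 0.639 to 1.59 RPKM, against 2.52 to 12.8 RPKM in Zunla 1.

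Pairs of neighbours were also absent together from some lines. Capana00g003511 and Capana00g003512 were both at 0 in mature green ZJ49, against 1.87 to 10.2 RPKM and 1.09 to 3.43 RPKM in the other 7 lines. They were at 0.205 and 0 RPKM in ripening ZJ49 fruit, and at 0.390 and 0 RPKM in ripening ZJ7 fruit. Capana10g001508 and Capana10g001509 were both at 0 in mature green ZJ9, ZJ49, 11c255 and T803, against 0.419 to 1.19 RPKM and 2.34 to 4.09 RPKM in the remaining 4 lines. Both were also at 0 in ripening fruit of ZJ49 and ZJ7. If neighbouring genes are near-identical copies, the authors' counting could split reads between them, which could not be examined without sequences.

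Genes beside the members were more often low in HYL than genes farther off. Among the genes on in Zunla 1 that were not members, 72 lay 1 ID number from a member, and 9 of them (12.5%) were under 1 RPKM in all HYL columns. The share was 1.45% of 344 genes at a distance of 2 to 5 and 0.828% of 13769 genes farther away. The median difference, HYL minus Zunla 1 on the log2(RPKM + 1) scale, was -0.19, 0.05 and 0.07 over these 3 distances. Most direct neighbours were therefore not low in HYL. The HYL and Zunla 1 libraries compared here had also chosen the members, so these shares describe and test nothing. Capana09g001326 and Capana09g001331, described above, were among the 9 genes low in HYL.

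The reverse list of 33 genes, on in HYL and below 0.1 RPKM in the 5 Zunla 1 libraries, was shorter than the list of 150. In the 9 unused Zunla 1 libraries 15 of the 33 (45.5%) were below 0.1 RPKM throughout. The table rests on 1 gene set, and which line it was made from is not given in the sources used here, so the unequal lengths of the lists cannot be told apart from that choice.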

How the data were processed

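RNA of 33 pepper samples was sequenced as poly(A) libraries with paired reads, per the labels' protocols. The authors deposited 1 table of RPKM values, normalised to gene length and library reads. Aligner, counter, genome build and gene annotation were not given in the sources used here. Every sample column was used.

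Because RPKM values step by 1 read, the steps gave the read total of each library (12691809 to 31213971) and, for 25335 genes, a length, sought among multiples of 3. Genes were compared with limma 3.58.1 in R 4.3.3 (lmFit; eBayes, trend on) as two-sided tests of log2(RPKM + 1). Genes that reached 1 RPKM in 2 or more libraries of a comparison entered, and calls were made at a Benjamini-Hochberg adjusted p of 0.05 over all genes tested. The fits were tested on simulated data. Fold changes on this scale understate those of low genes.

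The members, thresholds and lists were chosen with earlier results of these data known. Named genes are the 8 highest by median in the 9 unused Zunla 1 libraries, the longest runs of ID numbers, up to 2 called rises and 2 called falls per test, the 3 absent from the most other C. annuum libraries, and those nearest to the thresholds. Neighbours of runs, the pairs, the third gene higher in flowers and Capana07g000435 among the lines were named after their values were seen. Alternatives were another pseudocount (0.1), no filter, median-of-ratios scaling, other thresholds and leaving out each library.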

Additional observations from a re-analysis of the deposited data

Results flagged for a closer look

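For the 28 genes named by rule, and for the count of absent members per line, 57 groups of 4 or 8 values were searched for a highest or lowest library whose gap to the nearest other one, as a share of the group's range, was above Dixon's critical value for a group of that size. By chance this marks about 1 group in 20. It marked 9, among which are genes named because they are absent from most lines. Among the 8 mature green lines, ZJ32 stood above the rest for Capana02g003287 (16.1 RPKM, next 8.32), Capana06g002766 (7.28 RPKM, the others at 0) and Capana07g001128 (90.5 RPKM, next 51.6). ZJ9 stood above the rest for Capana10g000701 (6.05 RPKM, the others at 0) and Capana11g001305 (123 RPKM, next 54.4), and G16 for Capana04g000137 (1.78 RPKM, next 0.225). Among the 4 growing fruit classes of Zunla 1, fruit of 3 to 4 cm was high for Capana05g000622 (35.0 RPKM, next 14.3) and low for Capana10g001264 (35.6 RPKM, next 55.9). Fruit of 4 to 5 cm was low for Capana10g000701 (3.87 RPKM, next 8.76). Each rests on 1 library, and none was repeated.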

How the results depend on the processing

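The number of members depended on the thresholds: 226 genes with HYL below 0.5 RPKM and 39 with Zunla 1 at 5 RPKM or more, against 141 at exactly 0 in HYL and 151 after rescaling, which stayed near 150. Leaving out 1 column gave 153 to 164. Members at a raised threshold of 2 RPKM in all 8 lines were 59, and leaving out 1 line gave 90 to 94 at 1 RPKM. Adjacent ID numbers alone gave 17 of the members with a near neighbour. Leaving out 1 chiltepin library gave 23 to 26 members below 0.1 RPKM in the rest. In the limma test of chiltepin, leaving out 1 library gave 0 to 0 calls. A fit with the leaf pair added was run and set aside, since Zunla 1 leaf had chosen the genes. Median-of-ratios scaling gave 21 calls after breaker and 37 in flowers; leaving out 1 library gave 15 to 29 after breaker and 47 to 77 in flowers, the lowest without the bud. In the other lines, no filter gave 2 calls, against 2126 of 28691 genes tested, and the shallower lines gave 0 over members and over all genes. Leaving out 1 mature green line gave at most 13, against 4413 of 21155 genes tested. The calls described above were all lost without either library of 5 days. The direction of Capana09g001327 in flowers turned under scaling (0.0015, limma adjusted p 0.996). The causes were not tested. The labels give no replicate numbers, and no analysis paired by line was run. Organ was a block in the chiltepin comparison, which called 0 members also without it. Of the lines outside the choice of genes, only ZJ49 was sequenced at both ripening stages. Depth limits the absence calls: a gene at 0 may hold up to 3 reads' worth of RNA unseen.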
